A study of Mus musculus with 2 samples.

Results

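Peaks of thymine DNA glycosylase (Tdg) next to the centromeres of the mouse autosomes were described here. They were chosen by position alone, as the peaks on chromosomes 1 to 19 whose midpoint lies within 5 Mb of the start of the first peak of the chromosome. Of 72970 peaks in the list, 2530 met this rule, which is 3.47% of the list and 3.50% of the 72227 autosomal peaks. Each was compared with the interior of its own chromosome, the stretch that starts 5 Mb after the first peak and stops 5 Mb before the end of the last one, which held 65303 peaks over 2218 Mb. The peaks come from a Biotag ChIP-seq library of E14 mouse embryonic stem cells labelled Bio-Tdg (n = 1), in which a biotin tag on Tdg lets the protein and its DNA be captured. The other library of the series came from E14 cells labelled BirA (mock, n = 1) and was not analysed here, so no background measured in the mock stands beside these values. No value has a replicate error, no test between samples could be made, and intervals cover counting error within the list only. They also treat peaks as independent and are too narrow where peaks cluster. Positions are in the build mm9.

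Mouse chromosomes other than Y have their centromere at one end, next to large blocks of satellite repeats packed as constitutive heterochromatin and rich in methylated cytosine. The genome builds hold a placeholder without sequence in place of these blocks, and the assembled bases closest to the centromere follow it. Tdg removes 5-formylcytosine and 5-carboxylcytosine, which TET enzymes make from methylated cytosine, and base excision repair then puts back an unmodified cytosine. The peaks described here therefore have positions in the assembled sequence or at its edge. Repeats were not annotated, so whether any of them lies in satellite sequence was not determined.

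The first peak of 18 of the 19 autosomes began before 3.7 Mb, and the lowest of all was on chromosome 9 at 2999867 to 3001595, with a width of 1729 bp and a score of 3100. The score is the authors' value per peak, which MACS 1.4 computes from a p-value as −10 log10(p). Chromosome 14 was the exception, with a first peak at 6093484 to 6094314, 831 bp wide and with a score of 398. Its window therefore lies deeper in the chromosome than the others. When windows began at 3 Mb of every chromosome, a setting chosen after seeing the data, the window of chromosome 14 held 1 peak and its density was 0.0103 of the interior (exact 95% interval of the ratio 0.000262 to 0.0576), against 67 peaks and a ratio of 0.694 in the window that starts at its first peak.

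How crowded the centromere-near window was differed widely between chromosomes. The windows held from 23 peaks on chromosome 3 to 603 on chromosome 19, with a median of 76, and 11 of the 19 held fewer than 100. In density this is a median of 15.2 peaks per Mb, while the interiors had a median of 28.8 and ran from 19.3 to 51.2 per Mb. The windows of chromosomes 19, 11 and 7 together held 1246 peaks, 49.2% of the total, and chromosome 19 alone held 23.8%. A sum over the windows is therefore largely a statement about these 3 chromosomes.

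**Figure D1:**
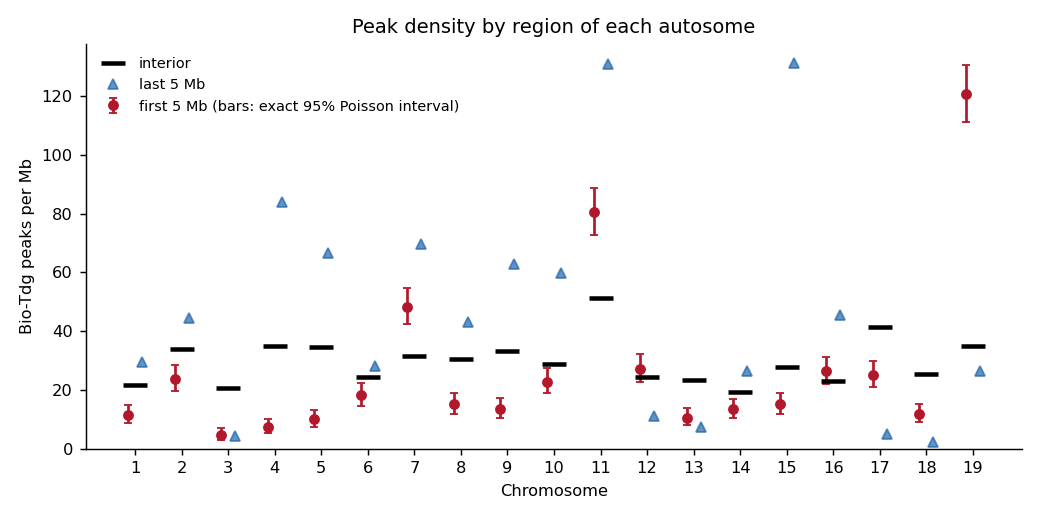
Peaks per Mb (vertical axis, linear from 0) for each autosome (horizontal axis) in the first 5 Mb (red points, bars are exact 95% Poisson intervals), the interior (black dashes) and the last 5 Mb (blue triangles). The red points lie below the black dashes on 14 of 19 autosomes, and chromosome 19 stands highest at 120.6 peaks per Mb.

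The density next to the centromere was lower than in the interior of the same chromosome on 14 autosomes and higher on 5, which were chromosomes 7, 11, 12, 16 and 19. The median ratio was 0.610, with a range from 0.211 to 3.44. On chromosomes 12 and 16 the exact 95% interval of the ratio included equality (0.929 to 1.32 and 0.952 to 1.37), and on the other 17 it did not. How many interior windows had an interval without equality was not counted, so no background stands beside the 17. These intervals are too narrow where peaks cluster. A share of 73.7% of windows below their interior has to be read against the unevenness of the interior itself. Of 434 whole 5 Mb windows of the interiors, 61.1% also lay below and 38.9% above the mean of their interior, and their median ratio was 0.735. A density at least 1.5-fold lower was found in 10 of the 19 first windows (52.6%) and in 46.3% of interior windows, and a density at least 1.5-fold higher in 3 (15.8%) and 22.4%. The first windows were thus close to the background in these counts, and 13 of the 19 had a ratio between the quartiles of the interior windows, 0.356 and 1.41.

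**Figure D2:**
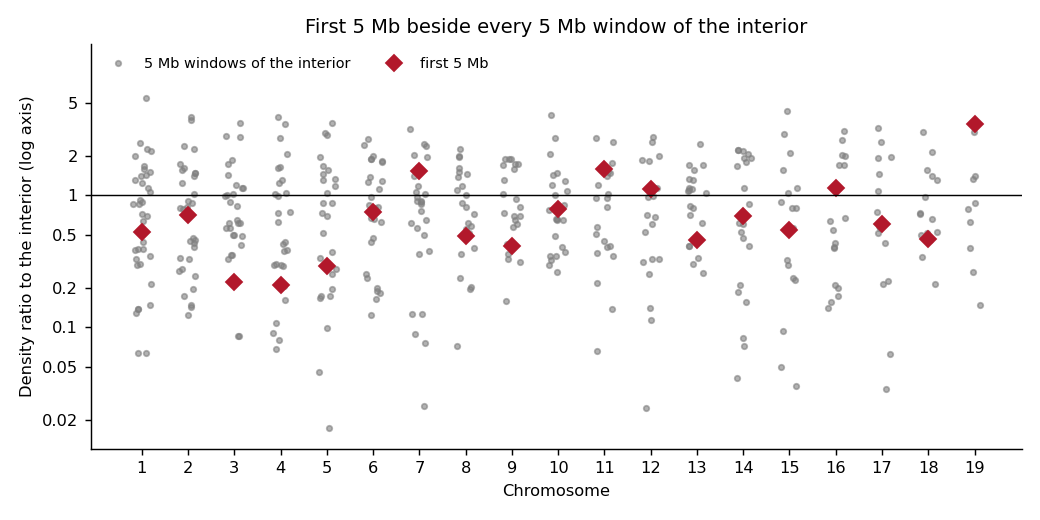
Ratio of peak density to the interior of the same chromosome (vertical axis, log scale) for the first 5 Mb (red diamonds) and for each whole 5 Mb window of the interior (grey points, 434 windows), by autosome. The red diamonds lie inside the grey spread on 18 chromosomes, and on chromosome 19 the first window, at 3.44, lies above all 9 interior windows.

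Chromosome 19 was the only autosome whose first window held more peaks than every interior window of the same chromosome. Its 603 peaks, at 120.6 per Mb with an exact 95% Poisson interval from 111 to 131, stood against 35.0 in the interior, a ratio of 3.44 (3.13 to 3.78). The 9 interior windows of that chromosome held 26 to 529 peaks with a median of 138. Among the 434 interior windows of all autosomes 9 held at least as many peaks as this window, so it was among the most crowded stretches of the list but not alone. The peaks were spread over the whole window, with 90, 134, 165, 144 and 70 in its consecutive megabases, and they covered 15.4% of the bases against 3.75% in the interior. In the GRCm38.p6 annotation, which is another build and was used here for gene order only, the first protein-coding genes from this end are Ighmbp2, Mrpl21 and Cpt1a. Ighmbp2 encodes a helicase, Mrpl21 a protein of the mitochondrial ribosome, and Cpt1a the enzyme that admits long-chain fatty acids to mitochondrial oxidation. Whether a peak lies at any of these genes was not determined.

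Chromosome 11 followed with 402 peaks, or 80.4 per Mb (72.7 to 88.7) against 51.2 in an interior that was itself the densest of the 19. The ratio was 1.57 (1.42 to 1.74), and 18 of the 21 interior windows of the chromosome held fewer peaks. The megabases of the window held 95, 128, 109, 63 and 7 peaks, so the fifth was nearly empty. The first protein-coding genes in the annotation order are Sfi1, which encodes a centrosome-associated protein, Gm51877 and Eif4enif1, which encodes a carrier of the translation factor eIF4E into the nucleus. Chromosome 7 had 241 peaks, 48.2 per Mb (42.3 to 54.7) against 31.6 in its interior, a ratio of 1.53 (1.33 to 1.74). Its peaks sat mainly in the first 2 megabases, which held 92 and 95, and the later ones held 9, 43 and 2. The last peak inside this window lay 4.08 Mb from the first peak and the next one 7.91 Mb from it. The genes at the start of the annotated chromosome are AU018091, Nlrp12, a member of the NLR family of innate immune sensors, and Myadm, a membrane protein gene.

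At the sparse end stood chromosomes 4, 3 and 5. Chromosome 4 had 37 peaks in its window, 7.40 per Mb (5.21 to 10.2) against 35.1 in the interior, a ratio of 0.211 (0.148 to 0.291). Of its 28 interior windows, 6 held fewer peaks. The first genes in the annotation are Vmn1r2 and Vmn1r3, which belong to a family of vomeronasal pheromone receptors, and Gm52720. Chromosome 3 had the fewest peaks, with 23, or 4.60 per Mb (2.92 to 6.90), against 20.8 per Mb, a ratio of 0.221 (0.140 to 0.332). They were spread thinly, with 4, 4, 5, 3 and 7 in the successive megabases, and 2 of 29 interior windows held fewer. The gene order there begins with Hnf4g, a nuclear receptor gene, Zfhx4, which encodes a zinc finger and homeobox transcription factor, and Pex2, needed for peroxisome assembly. Chromosome 5 had 50 peaks (10 per Mb, 7.42 to 13.2) against 34.6 in the interior, a ratio of 0.289 (0.214 to 0.381), and 9 of its 27 interior windows held fewer. Its annotation starts with Cdk6, the cell cycle kinase gene, Fam133b and 1700109H08Rik.

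The remaining windows lay between these extremes. Chromosomes 9, 13, 18 and 8 had ratios of 0.410, 0.455, 0.466 and 0.496. Chromosomes 1, 15, 17 and 14 followed with 0.523, 0.545, 0.610 and 0.694, and chromosomes 2, 6 and 10 with 0.705, 0.746 and 0.791. Chromosomes 12 and 16, at 1.11 and 1.14, were the closest to their interiors. Ranked by number of peaks within its own chromosome, the first window had fewer peaks than the median interior window on 11 autosomes and more on 8.

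Summed over the 19 windows, the 2530 peaks were 0.895 of the 2828 that the interior densities predict (exact 95% Poisson interval 0.860 to 0.930). Without chromosome 19 this ratio was 0.726, and without chromosome 11 it was 0.827. In windows of 2 Mb the direction turned, to 1.14, while 13 of 19 autosomes lay below their interior, against 63% of interior windows of 2 Mb. Counting peaks with a score of at least 1000 gave 794 members and a ratio of 0.994. The summed ratio thus moved with which chromosomes and peaks were counted.

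The profile with distance showed where in the window the peaks lay. In the first 3 megabases the 19 autosomes together had 596, 691 and 578 peaks. Relative to the interior density this is 1.05 (exact 95% Poisson interval 0.971 to 1.14), 1.22 (1.13 to 1.32) and 1.02 (0.940 to 1.11), and 2 of these 3 intervals include equality. The fourth megabase had 448 peaks (0.792, interval 0.720 to 0.869) and the fifth 217 (0.384, 0.334 to 0.438). Megabases are unevenly filled everywhere. Of 2210 steps of 1 Mb in the interiors 64.8% lay below the mean of their interior, with a median of 0.563. In the first 4 megabases the median over autosomes, 0.502 to 0.629, was close to that value. In the fifth it was 0.164, and 17 of the 19 autosomes lay below their interior. Counts of 17 were also reached at 6 to 7 Mb and 8 to 9 Mb and exceeded at 11 to 13 Mb. Without chromosome 19 the ratios of the first 5 megabases were 0.954, 1.05, 0.778, 0.573 and 0.277.

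Low density did not stop at the border of the 5 Mb window. From 5 to 17 Mb the summed ratio stayed between 0.281 and 0.914 in every megabase, lowest at 12 to 13 Mb, where all 19 autosomes were below their interior mean, beside the 64.8% of all interior steps. It returned to 1.04 at 17 to 18 Mb and 0.972 at 18 to 19 Mb. At 19 to 20 Mb, the last step of the profile, it was again low at 0.583 (0.522 to 0.650). These steps are themselves part of the interior they are compared with. In windows of 10 Mb, 16 autosomes (against 61% of interior windows of that length) were below their interior and the summed ratio was 0.757.

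**Figure D3:**
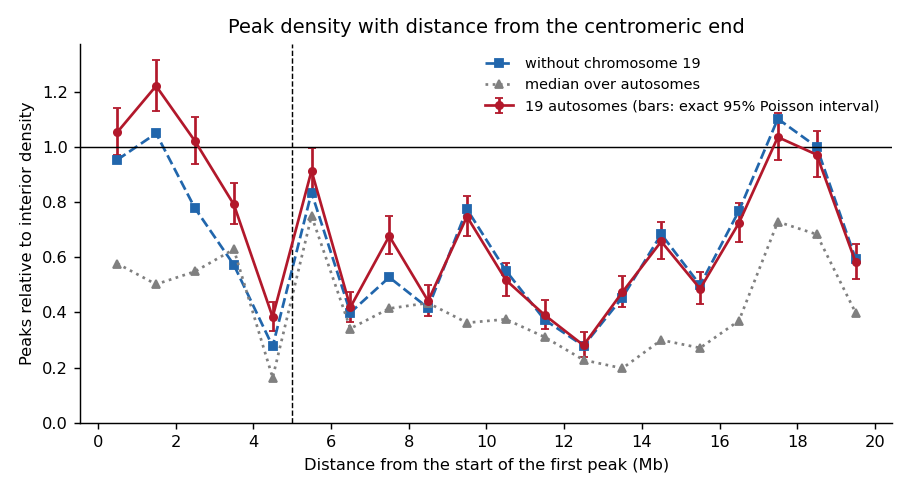
Peaks in steps of 1 Mb relative to the interior density (vertical axis) against distance from the start of the first peak in Mb (horizontal axis), summed over 19 autosomes (red, bars are exact 95% Poisson intervals), without chromosome 19 (blue) and as the median over autosomes (grey). The summed ratio is 1.22 in the second step, 2 of the first 3 intervals include 1, and it drops to 0.384 in the fifth, while the median over autosomes stays below 1 throughout.

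**Figure D4:**
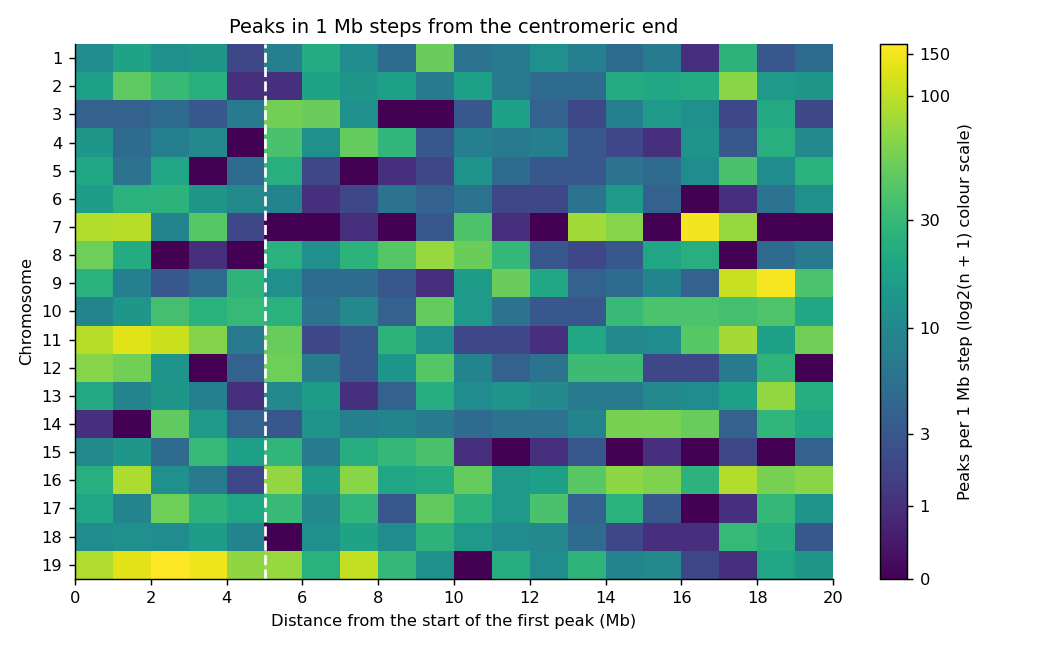
Number of peaks (colour, log2 scale of the number plus 1) in steps of 1 Mb from the start of the first peak (horizontal axis) for each autosome (rows), with the 5 Mb border dashed in white. Chromosomes 19, 11 and 7 are bright in their first steps, and the darkest cells are steps with 0 peaks, which lie inside the window on chromosomes 4, 5, 8, 12 and 14 and beyond it on others.

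The fullest megabases of the windows were on chromosome 19, from 5159651 to 6159650 with 165 peaks, from 6159651 to 7159650 with 144 and from 4159651 to 5159650 with 134. Of the 95 megabases in the 19 windows 6 had no peak, and a count of 0 allows up to 3. Megabases without a peak also lay beyond the windows, for example on chromosome 7 from 8168020 to 9168019. Their share in the interiors was not counted, so they are not shown to be particular to the windows. The longest stretch between peaks inside a window was on chromosome 14, from 6094315 to 8581973, or 2.49 Mb, directly after the first peak of that chromosome. Chromosome 12 had 2.07 Mb without a peak from 5709488 to 7784400 and chromosome 8 had 2.04 Mb from 4934523 to 6973908. Stretches longer than 1 Mb occurred on 6 autosomes, and how often they occur in the interiors was not counted. The megabases of the window held 64, 55, 13, 0 and 4 peaks on chromosome 12 and 53, 22, 0, 1 and 0 on chromosome 8, beside interior densities of 24.5 and 30.7 per Mb.

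Neighbouring peaks lay farther apart near the centromere on most chromosomes. The median distance between midpoints was longer than in the interior on 15 autosomes and shorter on 4, which were chromosomes 7, 14, 16 and 19, and the median ratio was 2.15. Among the 420 interior windows with at least 10 peaks, 72.1% had a longer median distance than their interior, so 15 of 19 (78.9%) is near the background. The median ratio of these interior windows was 1.47, with quartiles of 0.961 and 2.91, so 2.15 lies between their quartiles. A distance at least 1.5-fold longer was seen in 12 first windows (63.2%) and in 49.3% of the interior windows. The extreme was chromosome 3, with a median of 156984 bp against 9841 bp. Chromosome 19 had the tightest spacing, 4454 bp against 7006 bp, and 55.6% of its distances were under 5 kb against 41.8% in the interior. Over all windows 39.6% of 2511 distances were under 5 kb against 40.2% in the interiors, and without chromosome 19 it was 34.6% against 40.1%. On chromosome 14 the median distance, 9422 bp against 9990 bp, was shorter although the density was lower. Of its 67 peaks, 47 sat in the third megabase of the window.

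Peaks next to the centromere had lower median scores and smaller median widths than the interior on most chromosomes. The median score was lower than in the interior on 14 autosomes and higher on 5, which were chromosomes 5, 8, 9, 16 and 19, and the median ratio was 0.888. Of the interior windows, 54.3% had a lower and 45.7% a higher median score than their interior, against 73.7% and 26.3% of the first windows. The share of peaks scoring 1000 or more was higher than in the interior on 11 of the 19 autosomes. Among them were chromosome 18 (37.3% against 26.9%, 22 of 59 members) and chromosome 3 (34.8% against 27.8%, 8 of 23 members). Both had a lower median score than their interior. How many interior windows had a higher share was not counted, so no background stands beside the 11. A median at least 1.5-fold lower was found on chromosome 17 (score 401 against 603), in 0.476% of the interior windows, and a median at least 1.5-fold higher on 0 autosomes, in 1.19% of the interior windows. The quartiles of the member scores on chromosome 17 were 306 and 906. At the other end chromosome 8 had a median of 731 against 552, and chromosome 19 had 698 against 544.

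Width and score were closely related among the members (Spearman's rho 0.966 across peaks, which are not independent). The median width was below that of the interior on 14 autosomes, with a median ratio of 0.936, a lowest of 0.804 on chromosome 17 (714.5 against 888.5 bp) and a highest of 1.18 on chromosome 19 (991 against 840 bp). Of the interior windows, 54% had a lower median width than their interior, and their median ratio was 0.992, with quartiles of 0.928 and 1.04. The number of reads in a peak could be recovered from score and width for 2426 of the 2530 peaks, and reads per kb divides out the width. Its median was lower than in the interior on 13 autosomes (68.4%, against 51.9% of interior windows), with a median ratio of 0.978 and a range from 0.912 on chromosome 17 to 1.14 on chromosome 8. The differences in reads per kb were thus smaller than those in score. In the interior windows the median ratio of reads per kb was 0.998, with quartiles of 0.975 and 1.03, so 0.978 lies between them. Neither score, width nor reads per kb could be tested, as peaks of 1 library are not replicates.

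These differences within chromosomes were not visible when the peaks were pooled. The pooled median score was 560 (quartiles 338 and 1265) next to the centromere and 553 (336 and 1120) in the interior, with widths of 851.5 and 851 bp. Without chromosome 19 the pooled medians were 521 against 554 and 819 against 851 bp. Of the pooled members 31.4% had a score of at least 1000, against 28.2% in the interior, and without chromosome 19 it was 29.2% against 28.2%. The direction of the score difference also depended on how far the window reached. In windows of 2 Mb the median ratio of scores was 1.06, and with peaks scoring 500 or more it was 1.07. By megabase the pooled member scores had medians of 602, 586, 539, 544 and 511, highest nearest the centromere, and without chromosome 19 they were 606, 560, 479, 473 and 484.

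**Figure D5:**
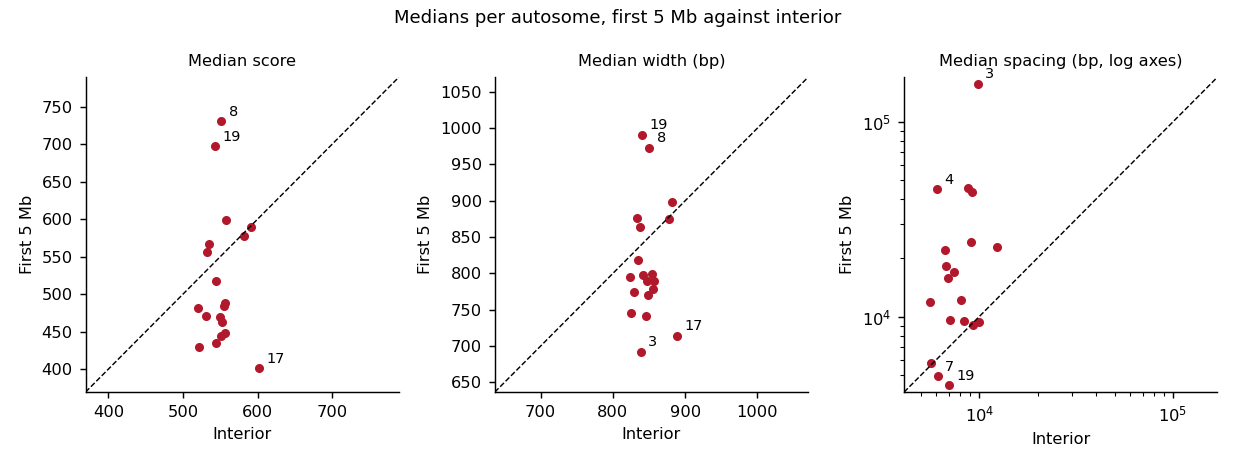
Median score, median width in bp and median distance between neighbouring midpoints in bp (log axes) in the first 5 Mb (vertical axes) against the interior (horizontal axes), 1 point per autosome, with equality dashed and the extreme chromosomes numbered. Most points lie below the line for score and width and above it for distance. Chromosomes 8 and 19 lie highest above the line for score, and chromosome 3 lies highest above it for distance.

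Across the 19 windows, density relative to the interior and median score relative to the interior had a Spearman's rho of 0.365, and across the 420 interior windows of at least 10 peaks rho was 0.158. All points share the library, and windows of a chromosome share their interior. Between the density of a window and that of its interior rho was 0.363 over the 19 autosomes. These values are descriptions and were not tested.

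The 4 widest members were all at the start of chromosome 11, at 3059334 to 3100222 (40889 bp), 3030350 to 3049031 (18682 bp), 3051952 to 3059297 (7346 bp) and 3187779 to 3194612 (6834 bp). The next was on chromosome 19, 5805744 to 5811748, with 6005 bp. All 5 had a score of 3100, a value shared by 84 members, which does not rank them. The first 3 lay between 16.3 and 56.3 kb from the first peak of chromosome 11, measured to their midpoints, and the fourth 168 kb from it. Ends at 3049031 and 3059297 were followed by starts at 3051952 and 3059334, so the first 3 were close neighbours. In the interiors the widest peak had 10666 bp. Copy number and mappability at the start of chromosome 11 were not analysed, and neither was the mock. Whether these widths reflect Tdg binding was therefore not tested. Whether the peaks lie at Sfi1, the first gene in the annotation order there, was not determined. Over all windows 59 members were wider than 3 kb (2.33%, against 1.86% in the interior), 24 of them on chromosome 19, which held 23.8% of the members, and 14 on chromosome 11, which held 15.9%.

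The highest score among the members, 3218, belonged to chromosome 17, 5491128 to 5493933, with a width of 2806 bp. It was followed by chromosome 19, 7495910 to 7498349 (score 3200), chromosome 10, 4521075 to 4523378 (3196), chromosome 19, 7269492 to 7273403 (3192), and chromosome 17, 7372984 to 7375730 (3183). These lay 1.41 to 4.34 Mb from the first peak of their chromosome. Scores this high are close to the limit of the p-value's number format, so their order is not a ranking of strength. This also holds against the 84 members at 3100, which are not shown to be weaker.

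On each autosome the last peak inside lay between 3.75 and 5.00 Mb from the first peak, and the median score of these 19 peaks was 356 and their median width 646 bp. The first peaks outside had medians of 606 and 940 bp.

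The opposite end of the chromosomes served as the most similar comparison. The last 5 Mb of the 19 autosomes held 4394 peaks, with a median ratio to the interior of 1.38, and were denser than the interior on 13 autosomes (68.4%). Of the interior 5 Mb windows, 38.9% were denser than their interior, and their median ratio was 0.735. The centromere-near window had fewer peaks than the opposite end on 13 autosomes and more on 6, which were chromosomes 3, 12, 13, 17, 18 and 19. On chromosome 15 the contrast was 76 against 656 peaks, and on chromosome 19 it was 603 against 132. The difference between the ends was not tested, and gene content, mappability and repeat content of either end were not analysed here.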

How the data were processed

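The deposited file analysed is the peak list of the Bio-Tdg library (1 sample), with positions and a score per peak. Per the submitters' processing notes CASAVA 1.8, Bowtie 0.12.7, MACS 1.4.1 and mm9 were used, with no role or order given. Neither the peak threshold, the control, the read filters nor the library's depth is stated in those sources. The score is the authors' deposited value, and the other deposited columns are the start and end of each peak. Members were taken by midpoint. The members, the lists and the comparisons were chosen with earlier results of these data known. Windows, 19 in all, were compared with the interior by ratios of densities and of medians. Intervals are exact 95% Poisson intervals or, for a ratio of 2 densities, exact conditional binomial intervals, and cover counting error only. The background is each whole 5 Mb window of the interiors against the same interior, with at least 10 peaks where a median is used and 1.5-fold as the size counted. Reads per peak were recovered with a single rate of 1.13 reads per kb as the whole number whose Poisson probability gives the score within 0.01 units, which held for all 70884 peaks with a score below 3050. As 1 rate fits all of these peaks, no background that varies between regions entered their scores. Both steps were run on simulated data, with scores made by the same formula and peaks placed at random without clusters. Such a run checks the calculation only, and not that the recovered numbers are the true reads.

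Named regions followed a rule: the 3 windows with the highest and lowest ratios, the 5 widest and 5 highest-scoring members, the 3 longest stretches without a peak and the 3 fullest megabases. Genes are the first 3 protein-coding genes of those chromosomes in the RefSeq table of GRCm38.p6, leaving out entries that start below 3 Mb, which were taken to lie on separate scaffolds. No mm9 sequence or annotation was used, so no peak was assigned to a gene and no sequence is printed. Alternatives changed the window, interior, peak filter, merging, measure or chromosomes. Scripts ran on Python 3.11.15 with scipy 1.17.1, numpy 2.4.6, matplotlib 3.10.9 and pandas 2.3.3.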

Additional observations from a re-analysis of the deposited data

How the results depend on the processing

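The autosomes below their interior numbered 14 in the main setting and in 9 of the alternatives. Without chromosome 11 or without chromosome 19 the 14 were out of 18 autosomes. They numbered 13 with a 2 Mb window, 15 with a score of at least 500 and 16 with a 10 Mb window. Of interior windows 61.1% lay below in the main setting, and 63%, 62.0% and 61% in these last settings. With a score of at least 1000, where 14 autosomes lay below, the share was 64.7%. These counts thus say little about the first windows alone. The summed density ratio of 0.895 moved to 0.757 with a 10 Mb window, 0.940 in bases covered, 0.994 with a score of at least 1000, 0.827 without chromosome 11 and 0.726 without chromosome 19, and turned to 1.14 with a 2 Mb window. The median score ratio of 0.888 turned to 1.06 with a 2 Mb window and to 1.07 with a score of at least 500. At that score the median width ratio of 0.936 turned to 1.05. The cause was not tested. The median spacing ratio of 2.15 lay between 1.86 and 2.86 in the other settings. Leaving out chromosome 19 and starting windows at 3 Mb were added after seeing the data. No paired analysis was possible because values from 1 library, Bio-Tdg, were analysed. The library's depth and calling threshold are unknown, so a stretch without a peak does not show missing binding.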

Other observations

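Chromosome X, which lies outside the rule, also has its centromere at the low-coordinate end. Its first peak began at 5668995, and the 5 Mb from there held 71 peaks, or 14.2 per Mb, against 4.12 per Mb in its interior. The ratio of 3.45 (exact 95% interval 2.66 to 4.41) was close to the 3.44 of chromosome 19, while the density itself was below the autosomal window median of 15.2. The median score of these X peaks was 449 against 409 in the interior, and their median width 764 against 710 bp.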
